A study of Mus musculus with 29 samples.

Results

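The regions described here are 862 short stretches of the mouse genome that carry type 5 of a 5-type map of the histone mark H2Aub and that sit beside type 1. They were chosen by 3 properties of the map itself: type 5, a length under 300 kb, and direct neighbours that include at least 1 segment of type 1 and none of type 4. They are 862 of 31563 segments in all and 862 of the 3775 segments of type 5. Together they cover 84.8 Mb, which is 3.45% of the mapped genome. The other type 5 segments are 1195 short ones between a pair of type 4 segments, 1014 short ones with 1 type 4 neighbour, 262 short ones beside neither type 1 nor type 4, and 442 of 300 kb or more.

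H2Aub is histone H2A with a single ubiquitin, placed by Polycomb repressive complex 1. Polycomb repressive complex 2, of which Eed is a core subunit, trimethylates histone H3 to give H3K27me3, and PR-DUB is the deubiquitinase that takes the ubiquitin off H2A again. The classical targets of these marks are silent developmental genes with CpG-rich promoters, while oocytes and early embryos also carry broad domains of them away from such promoters. Gene-poor, AT-rich chromatin, where tissue-restricted gene families such as the olfactory receptors lie, is by contrast poor in CpG.

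The study profiled the marks by CUT&RUN, which uses an antibody-guided nuclease to cut out the chromatin that carries a mark, in 29 libraries of 16 groups. Of these, 24 measured H2Aub and 5 measured H3K27me3. The Eed MatKO groups were germinal vesicle oocytes, 4-cell embryos and morulae, with 2 H2Aub libraries each. Their oocytes carried Gdf9-Eed (fl/fl), in which Cre recombinase under the oocyte promoter Gdf9 deletes floxed Eed, in a B6/129 mixed background, and the embryos had WT PWK fathers, so that their paternal Eed allele was intact. The PR-DUB (OE) 4-cell embryos, which overexpress the deubiquitinase, gave 1 H2Aub and 2 H3K27me3 libraries, and the PR-DUB (CTR) embryos gave the same numbers. Both were B6/DBA x PWK, WT x WT, and are also labelled PR-DUP. The H2Aub WT groups held 16 libraries. Those of germinal vesicle oocytes, all 4-cell and morula embryos and 2 of 3 2-cell libraries had mothers carrying Eed (fl/fl) without Gdf9-Cre, B6/129 mixed. Those of metaphase II oocytes, zygotes, the other 2-cell library, inner cell mass and E6.5 epiblast had WT B6/DBA mothers. All WT embryos had WT PWK fathers. The remaining H3K27me3 library came from WT B6/DBA germinal vesicle oocytes. Libraries held 1 to 300 oocytes, embryos or epiblasts where a number is given.

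The table analysed is 1 segmentation of chromosomes 1 to 19 of the mm10 build made with ChromHMM, a hidden Markov model that sorts the genome into recurring states. It gives each segment a type from 1 to 5 and no value for any library. The sources used here give neither the key to the types nor the libraries behind them, so a type is a label and not a level, and stages or genotypes could not be compared. The depth is unknown. Every value below is a count or a share in this 1 map, differences were not tested, and the intervals (exact Clopper-Pearson, 95%) cover counting error only, although neighbouring segments and clustered genes are not independent.

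Gene starts in these segments ranged from CpG-dense to free of CpG, and 4 promoters are printed as examples. They come from 64 genes, the longest ones and those of the most gene-rich segments. Cntn5 and Tet1 have the highest CpG observed over expected ratios of the 64, and Olfr348 and Olfr3 are the first in genome order of 19 genes tied at a ratio of 0. Starts outside the 64 genes had ratios of up to 1.28, against 0.858 at Cntn5 and 0.607 at Tet1. Each is the 250 bases before an annotated start on the gene's own strand, read 5′ to 3′ from RefSeq, GRCm38.p6, the same build as mm10. Capitals mark CG dinucleotides and the motif TATAAA, on the complementary strand TTTATA. Cntn5, a neuronal contactin adhesion molecule, lies at chr9:10904776-10905025 on the minus strand. Tet1, a dioxygenase that oxidises 5-methylcytosine in DNA, lies at chr10:62887325-62887574 on the minus strand. The olfactory receptor genes lie in the same segment, Olfr348 at chr2:36786277-36786526 on the plus strand and Olfr3 at chr2:36813091-36813340 on the minus strand.
Cntn5: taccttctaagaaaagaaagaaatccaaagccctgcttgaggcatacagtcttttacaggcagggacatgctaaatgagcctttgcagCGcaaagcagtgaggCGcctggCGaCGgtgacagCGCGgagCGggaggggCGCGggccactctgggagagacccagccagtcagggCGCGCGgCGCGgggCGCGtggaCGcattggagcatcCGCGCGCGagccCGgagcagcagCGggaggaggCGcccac
Tet1: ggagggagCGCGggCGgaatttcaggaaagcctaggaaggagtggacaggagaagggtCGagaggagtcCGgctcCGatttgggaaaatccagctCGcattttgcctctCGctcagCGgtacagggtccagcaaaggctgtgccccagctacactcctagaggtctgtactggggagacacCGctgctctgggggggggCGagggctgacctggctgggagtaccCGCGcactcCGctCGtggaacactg
Olfr348: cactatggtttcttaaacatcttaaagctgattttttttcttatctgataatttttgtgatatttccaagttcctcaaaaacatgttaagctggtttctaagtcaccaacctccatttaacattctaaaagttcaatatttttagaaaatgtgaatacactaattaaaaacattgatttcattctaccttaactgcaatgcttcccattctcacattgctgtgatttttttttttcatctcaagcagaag
Olfr3: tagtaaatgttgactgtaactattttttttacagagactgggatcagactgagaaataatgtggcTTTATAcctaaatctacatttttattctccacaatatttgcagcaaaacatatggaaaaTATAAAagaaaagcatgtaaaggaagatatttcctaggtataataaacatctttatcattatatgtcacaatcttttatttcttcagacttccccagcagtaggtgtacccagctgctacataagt
The Cntn5 stretch holds 24 CG dinucleotides and the Tet1 stretch 15, against 0 in Olfr348 and 0 in Olfr3. With 50 bases after the start included, the GC content is 63.7% at Cntn5 and 61.7% at Tet1, beside 33.0% at Olfr348 and 34.0% at Olfr3.

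Few microRNA genes lay in these segments, and the mature sequences of those that RefSeq gives are printed with the seed, bases 2 to 8, in capitals, since the seed is what pairs with target transcripts.
mmu-miR-6342: cAGCAGCAaucuggucuuugag
mmu-miR-6373: uAUGGGAAuaucuaggagguga
mmu-miR-101c: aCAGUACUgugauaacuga
mmu-miR-3964: aUAAGGUAgaaagcacuaaa
mmu-miR-1192: aAACAAACaaacagaccaaauu
No seed was shared between them. They lie at chr1:29421552-29421573, chr6:102794445-102794466, chr9:3038680-3038698, chr15:29713337-29713356 and chr19:23149450-23149471 of mm10 in that order, miR-101c and miR-3964 on the minus strand and the others on the plus strand, in segments of 210 kb, 265 kb, 60 kb, 275 kb and 60 kb, each with type 1 on both sides. The last lies inside the annotated body of Klf9, a Krüppel-like transcription factor. Mir5099 and Mir6355 make up the rest of the 7 microRNA genes in these segments, out of 1136 mapped (0.616%). That is 8.25 microRNA genes per 100 Mb, against 10.1 in type 5 segments of 300 kb or more and 40.5 in type 1.

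The most frequent setting was a type 5 island inside type 1. Type 1 stood on both sides of 492 segments (57.1%, interval 53.7 to 60.4), types 1 and 2 flanked 214 (24.8%, 22.0 to 27.9), and types 1 and 3 flanked 156 (18.1%, 15.6 to 20.8). The median length over all 862 was 80 kb, with quartiles of 40 and 144 kb and a range of 5 to 295 kb. Segments between types 1 and 3 were shorter, with a median of 35 kb, against 85 kb with type 1 on both sides and 95 kb between types 1 and 2. All 7 segments of 5 kb and 22 of the 24 segments of 10 kb stood between types 1 and 3. One example is the 5 kb segment over part of Wnt16, a Wnt signalling ligand, at chr6:22290001-22295000.

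**Figure D1:**
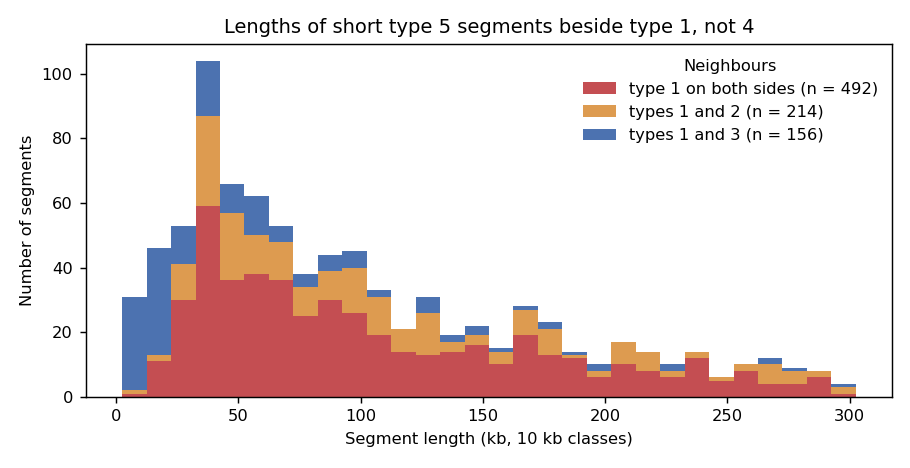
Number of short type 5 segments beside type 1 and not type 4 (y axis) by segment length in kb (x axis, classes of 10 kb), stacked by neighbours. The 492 segments with type 1 on both sides make up most of the histogram, and the 156 between types 1 and 3 crowd at the short end, with a median of 35 kb.

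The length limit cuts through a continuous run of lengths. Of the 4 segments of 295 kb, the first 3 in genome order are chr3:56935001-57230000 and chr12:64525001-64820000, with no protein-coding gene, and chr9:36170001-36465000, with Gm3867 and Pate12. Pate12 belongs to a family of small secreted proteins of the male reproductive tract. The first 3 of the 5 segments of exactly 300 kb, just outside, are chr2:84170001-84470000 with Calcrl and Tfpi, and chr2:100775001-101075000 and chr3:77460001-77760000 with no protein-coding gene. By length the other short type 5 segments were shorter, with medians of 25 kb between a pair of type 4 segments, 30 kb with 1 type 4 neighbour and 50 kb beside neither type 1 nor type 4.

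The type 1 segments at their sides were longer than type 1 as a whole. Without the first segment of each chromosome, the 1349 type 1 flanks had a median length of 75 kb, against 50 kb for all 7926 type 1 segments, and 139 of the flanks, against 391 of all, reached 300 kb. A type 1 segment between a pair of these segments counts here for each of them. Across the type 1 flank the next segment was again type 5 in 697 of 1354 cases (51.5%), against 13.8% of all 15833 type 1 borders. It was type 3 in 200 cases (14.8%), against 51.8% of all type 1 borders. Type 5 was thus the most frequent type on the far side of the type 1 flank, and type 3 the most frequent at all type 1 borders. The flanks were chosen for a border with a short type 5 segment. All type 1 borders were not so chosen, and they include those with these segments. The shares are thus not a like comparison, and type 1 beside other type 5 segments was not counted. The median distance to the nearest type 4 segment was 657.5 kb and 328 segments (38.1%) lay over 1 Mb from it, against a median of 160 kb and 13% for short type 5 segments beside neither type 1 nor type 4. The rule keeps type 4 from being a direct neighbour of either set. It also asks for a type 1 neighbour in the first set and bars one in the other. Type 4 stood at 1.21% of all type 1 borders, so these distances depend in part on the choice of neighbours.

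Uninterrupted runs of only types 1 and 5 were counted. There were 592 runs with at least 1 of the short segments, of which 438 held exactly 1 and 63 held 3 or more. Those 63 runs held 242 segments, 28.1% of the 862. The run with the most segments had 11, at chr6:68025001-70710000, 2.685 Mb in which no protein-coding gene was counted and which holds the V gene segments of the immunoglobulin kappa light chain. These are the units that B cells join to a J segment to build an antibody gene. Of 144 Igkv entries in the run, 78 (54.2%) lay in the 11 short type 5 segments and 61 in type 1. The lengths of both were near equal there, at 1.32 Mb of these segments and 1.315 Mb of type 1. Other long runs held 8 segments around Cdh18, a neuronal cadherin, at chr15:21355001-24490000, 8 around the follistatin-like gene Fstl5 at chr3:75900001-78155000 and 7 around Cdh9, another cadherin, at chr15:16635001-18590000.

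The segments were spread unevenly over the genome. They made up 3.47% ± 1.48 of a chromosome (SD, n = 19 chromosomes), from 1.30% of chromosome 5 to 6.23% of chromosome 15. As a share of all type 5 length they made up 15.2% ± 6.56, from 5.11% on chromosome 14 to 27.0% on chromosome 15. Protein-coding gene density in them averaged 6.12 ± 5.03 genes per Mb over the chromosomes, against 8.43 ± 2.45 for whole chromosomes, and it was lower in 13 of 19. The spread between chromosomes was large, from 0.549 genes per Mb on chromosome 11 to 16.8 on chromosome 19.

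**Figure D2:**
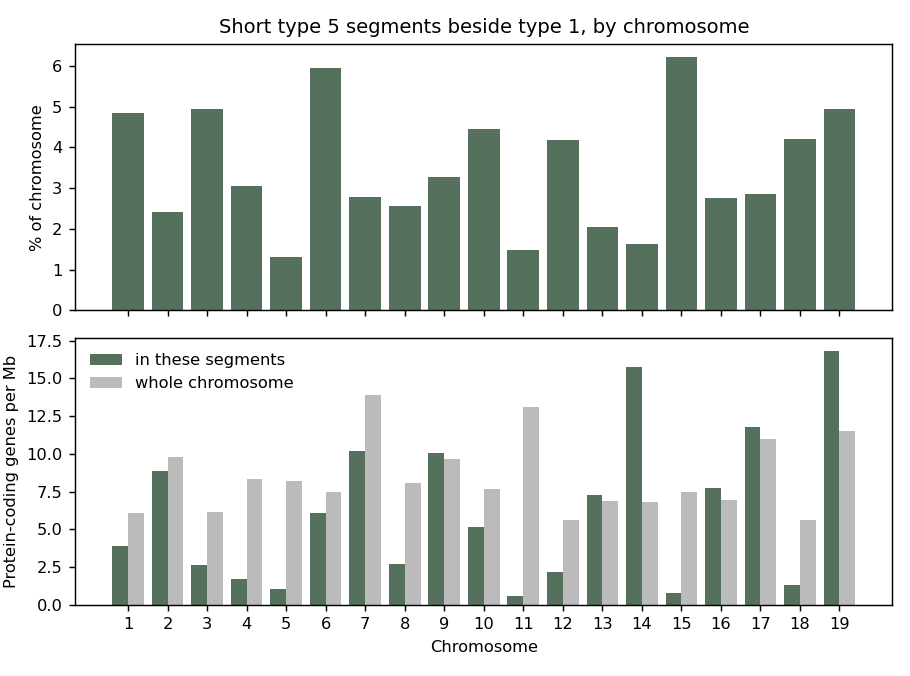
Top, share of each chromosome in the short type 5 segments beside type 1 (%). Bottom, protein-coding genes per Mb in these segments (green) beside the whole chromosome (grey), for chromosomes 1 to 19 (x axis). The share runs from 1.30% on chromosome 5 to 6.23% on chromosome 15, and the segments hold more genes per Mb than their chromosome only on 6 of the 19.

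Most of these segments held no protein-coding gene. None overlapped 489 of the 862 (56.7%, interval 53.3 to 60.1), and 86 (9.98%) lay inside the body of at least 1 gene. Of the rest, 145 (16.8% of the 862) held a whole gene, and 142 (16.5%) held only the end or start of one. With nested genes counted, 147 held a whole gene. The gene-free share was 28.8% between types 1 and 3, 65.4% between types 1 and 2 and 61.8% with type 1 on both sides. Among the other short type 5 segments, which were shorter, it was 62.0% between a pair of type 4 segments, 52.0% with 1 type 4 neighbour and 54.2% beside neither type 1 nor type 4. Of the bases in these segments, 19.6% lay in protein-coding gene bodies, against 18.8% in type 5 of 300 kb or more, 44.7% in type 1 and 39.9% in all. When each gene was given to the type that held the largest part of its body, 458 of 20558 protein-coding genes (2.23%) belonged to these segments, 364 of them with the whole body inside. This is 5.40 genes per Mb, against 2.36 in type 5 of 300 kb or more, 9.66 in type 1 and 8.35 in all. The genes were short: the median body was 3.09 kb, against 17.6 kb for all protein-coding genes. Without the chemoreceptor genes described next the median body was 21 kb, against 19.7 kb for all.

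Receptors for smell and taste made up about as much of the gene content as all other genes together. Chemoreceptors are G protein-coupled receptors and include olfactory receptors of the nose, vomeronasal receptors of the pheromone-sensing organ, bitter and other taste receptors of the tongue and trace amine receptors. They were 231 of the 458 genes (50.4%), against 45.2% in type 5 of 300 kb or more and 7.32% of all protein-coding genes. Olfactory receptor genes were 182 of them (39.7% of 458, interval 35.2 to 44.4). The share was 40.6% in type 5 of 300 kb or more, 4.38% in type 1 and 5.37% of all. In short type 5 segments beside neither type 1 nor type 4 it was 18.8% (interval 11.2 to 28.8). It was 12.5% in those with 1 type 4 neighbour and 7.74% in those between a pair of type 4 segments. Of all 1103 olfactory receptor genes, 16.5% lay in these segments, 32.5% in type 5 of 300 kb or more and 30.4% in type 1. Among the other chemoreceptor genes, 34 of 349 vomeronasal receptor genes (9.74%) lay here, beside 71.3% in type 1. Taste and trace amine receptor genes gave 15 of 53 (28.3%, interval 16.8 to 42.3), the highest share of any of the 30 lists. All 15 were bitter taste receptor genes of the Tas2r family, and no trace amine receptor gene was among them.

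**Figure D3:**
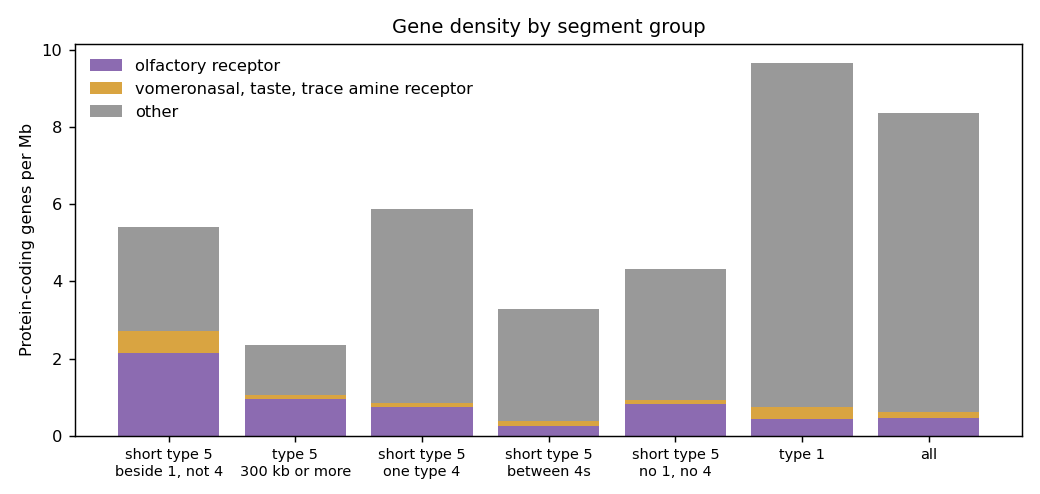
Protein-coding genes per Mb (y axis) by segment group (x axis), stacked by olfactory receptor genes, vomeronasal, taste and trace amine receptor genes, and all others. The short type 5 segments beside type 1 hold 5.40 genes per Mb, against 2.36 in type 5 of 300 kb or more and 9.66 in type 1.

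The olfactory receptor genes came in blocks. Whole olfactory receptor genes lay in 36 segments, with a median of 4 a segment and at most 13, and 15 segments held 126 of them. The type 1 segments touching 31 of the 36 also held olfactory receptor genes, so that arrays crossed the border of the types. They were most frequent on chromosomes 9 and 19, with 33 genes each, and chromosome 2, with 30. The segments with the most genes were chr19:13585001-13880000 with 13 olfactory receptor genes from Olfr1484 to Olfr1502, chr2:36740001-37015000 with 12 from Olfr348 to Olfr358, including the promoters printed above, and chr7:102800001-102990000 with 12 from Olfr564 to Olfr578. A segment at chr14:50260001-50540000 held 11 olfactory receptor genes and Tlr11, a Toll-like receptor of innate immunity that in mice senses microbial profilin. The segment at chr6:132535001-132805000 held 8 bitter taste receptor genes of the Tas2r family, with Tas2r102 as an example, and the salivary proline-rich protein genes Prh1 and Prp2.

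**Figure D4:**
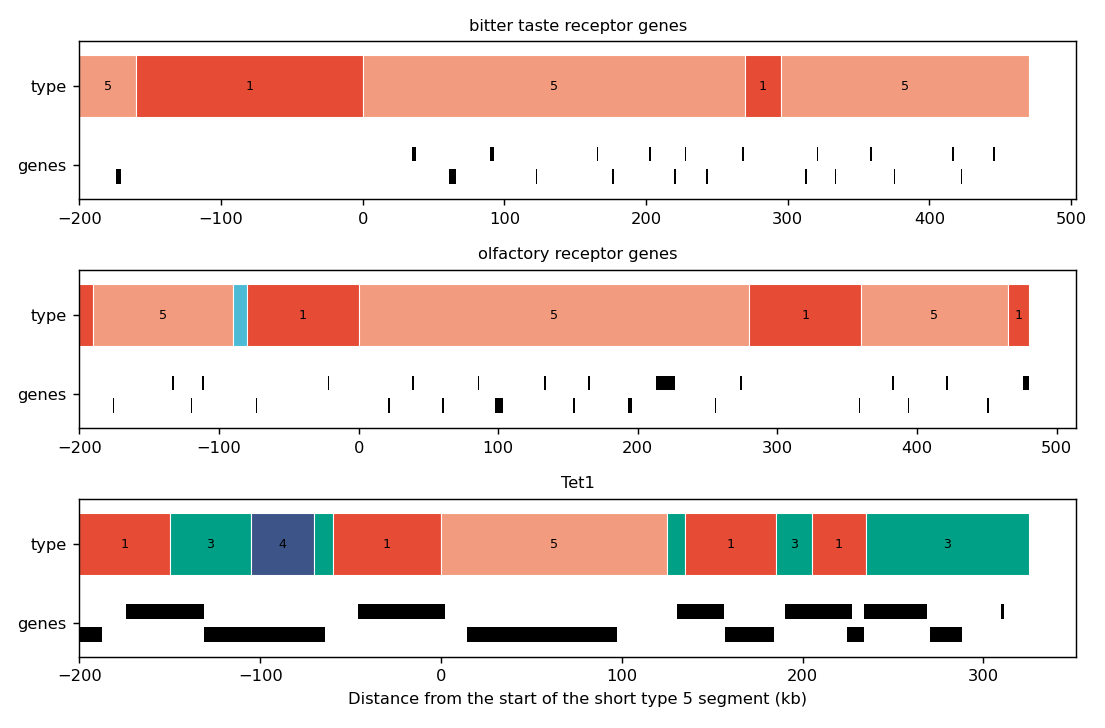
Maps of the segment with bitter taste receptor genes on chromosome 6 (top), of that with olfactory receptor genes on chromosome 14 (middle) and of that with Tet1 on chromosome 10 (bottom). Distance from the start of the short type 5 segment runs along the x axis in kb, the upper row of each panel shows the types as labelled blocks and black bars below are protein-coding gene bodies. The segments from 0 kb on are 270, 280 and 125 kb long, and the olfactory receptor genes of the middle map continue into the type 1 segments on both sides. The type 1 segment after the bitter taste receptor genes, 25 kb long, holds no gene, and the next Tas2r genes lie in the type 5 segment beyond it.

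Immune and tandem gene families followed, in small numbers. Of 60 lectin and natural killer receptor genes, 10 (16.7%) lay in these segments, among them Clec4a2, Clec4b2, Clec4d and Clec4e. Clec4e is a receptor of myeloid cells for microbial glycolipids. Of 62 serpin genes, which encode protease inhibitors, 5 (8.06%) lay here, with Serpinb3c, Serpinb11 and Serpinb7 in a segment of 210 kb. Cytochrome P450 genes, whose enzymes oxidise drugs and lipids, gave 7 of 99 (7.07%), including Cyp2c38 and Cyp2c39 in a segment of 215 kb. Zinc finger genes, among them Zfp493, Zfp637 and Zfp936, gave 7 of 415 (1.69%, interval 0.681 to 3.44). Solute carrier genes gave 5 of 376 (1.33%, 0.433 to 3.08), and both intervals include the 2.23% of all protein-coding genes. Families chosen after their values were seen were the Klra receptors of natural killer cells, with 5 of 11 genes, the Skint genes, of which Skint1 acts in the selection of skin T cells, with 4 of 11, the cathepsins Cts6, Cts7 and Cts8, in 1 segment of 220 kb, and the lens crystallins Cryga to Cryge, all 5 in 1 segment of 75 kb at chr1:65045001-65120000.

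The lists of developmental regulators gave small counts here. Of 127 homeobox genes, 1 (0.787%, interval 0.0199 to 4.31) was assigned here, the craniofacial transcription factor gene Alx1. Of 68 Wnt, Fgf and Bmp ligand genes there was 1 (1.47%, 0.0372 to 7.92), Wnt16. It had 48.3% of its body in the segment, 34.0% in type 1 and 17.6% in type 3, and its start lay in type 3. Of 22 pluripotency genes there were 2 (9.09%, 1.12 to 29.2), Klf5 in a segment of 140 kb and Zfp42, also called Rex1, in one of 165 kb. Each of these intervals includes the 2.23% of all protein-coding genes, so these counts cannot be told from it. Among the adhesion and signalling genes were Cdh9 and Pcdh10 of 33 cadherin genes, Gabrg3, with 28.1% of its body in these segments, of 45 glutamate and GABA receptor genes and Kcnt2, a sodium-activated potassium channel, of 127 channel genes. Rpl24 and Rps29 were the 2 of 76 cytosolic ribosomal protein genes. The orphan receptor genes held Gpr37, Mrgprx1 and Mrgprx2 of 119, and the ubiquitin ligase and TRIM genes held Marchf7 of 243. No gene of 13 of the 30 lists lay here. Among them were the 42 Polycomb and PR-DUB genes, with an interval of up to 8.41%, the 38 oocyte genes (up to 9.25%), the 30 genes of the 2-cell stage (up to 11.6%), the 52 imprinted genes (up to 6.85%), the 71 defensin genes (up to 5.06%) and the 109 keratin genes (up to 3.33%). These intervals all include 2.23%, so at these list sizes a count of 0 cannot be told from the share of all genes. Type 1 held 23 of the 42 Polycomb and PR-DUB genes and 27 of the 30 genes of the 2-cell stage, beside 7651 of all 20558 protein-coding genes.

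The 86 segments inside at least 1 gene lay in 74 genes, of which 40 were mostly type 1. Where genes overlapped at a segment, each was counted. The median body of the 74 was 396 kb, and since a gene must be longer than a segment to hold it, this length was in part fixed by the choice. The genes with the most such segments were Nkain2 and Fstl5, with 4 each. Nkain2, which encodes a partner of the sodium pump, was 36.0% these segments and 49.9% type 1 over 1208 kb, and Fstl5, a follistatin-like gene, was 51.1% these segments over 636 kb. Zfpm2, a cofactor of Gata factors in heart and gonad, was 77.8% these segments. Immp2l, a peptidase of the mitochondrial inner membrane, held 3 segments, over 45.1% of its body. Nkain2, Fstl5, Zfpm2 and Immp2l were chosen after their values were seen.

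Gene bodies wholly inside a segment reached 162.5 kb in Rab27b, a Rab GTPase of vesicle release. Next in length were Gpd2, the mitochondrial glycerol phosphate dehydrogenase, at 133.0 kb, Plppr5 at 114.9 kb, the kinase gene Sgk3 at 104.4 kb, the organic anion transporter gene Slco6d1 at 95.9 kb and Tet1 at 82.9 kb. The rest of the 10 longest were Cyp2c38 at 73.5 kb, Cyp2c66 at 72.9 kb, the annexin gene Anxa10 at 66.2 kb and Skint10 at 64 kb. Of their starts, that of Tet1 was CpG-rich, while Cyp2c38 had 0 CpG and Cyp2c66, Anxa10 and Skint10 had 1 each. TATAAA stood at Cyp2c38, Cyp2c66 and Anxa10 but not at Skint10. For Rab27b and Sgk3 no start was available.

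The longest genes with an annotated start in a segment that also reached outside it lay mostly outside these segments, in other type 5 or in other types. The start used is 1 of those annotated, and 59.8% of starts lay exactly at the gene's outer end. Cntn5 started in a segment of 25 kb and ran on for 1271 kb, of which 1.16% lay in the short segments and 87% in other type 5. Epha6, an ephrin receptor, had 26.8% of its 969 kb in the short segments and 49.5% in other type 5. Cdh18 had 25.8% of its 929 kb in 1 segment and 74.2% in type 1, and the start used lay 488 kb inside its annotated body. Dgkb, a diacylglycerol kinase, had 21.9% of its 754 kb in 1 segment of 260 kb and 70.8% in other type 5, and the transcription factor gene Zbtb20 had 8.48% of its 759 kb in the short segments, with the start used 372 kb inside the body.

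Among the longest segments of each neighbour class the gene content ranged from none to the 13 olfactory receptor genes of chr19:13585001-13880000, which stood between types 1 and 2. With type 1 on both sides, chr1:28935001-29225000 held none, chr17:19990001-20280000 held the vomeronasal receptor genes Vmn2r104 and Vmn2r105 with the formyl peptide receptor genes Fpr-rs6 and Fpr-rs7, and chr1:144400001-144685000 held Rgs21, a regulator of G protein signalling. Between types 1 and 2, chr6:102855001-103140000 held none, chr12:41390001-41675000 held Lrrn3, a neuronal leucine-rich repeat gene nested in Immp2l, and chr3:136245001-136525000 held the start of Bank1, a B cell scaffold gene. Between types 1 and 3, chr6:56925001-57195000 held 8 vomeronasal receptor genes from Vmn1r5 to Vmn1r12, and chr10:108880001-109145000 held the start of Syt1, the calcium sensor of synaptic vesicle release. In the class between types 1 and 3 such long segments were few, with 8 of 156 at 200 kb or more, against 66 of 492 with type 1 on both sides and 36 of 214 between types 1 and 2.

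Most gene starts in these segments were poor in CpG, and the CpG-rich ones belonged to genes other than chemoreceptors. A start was called CpG-rich when the 300 bases around it, 250 before and 50 after, had a GC content of at least 50% and a CpG observed over expected ratio of at least 0.6. That held for 65 of 416 protein-coding starts (15.6%, interval 12.3 to 19.5), against 10.1% in type 5 of 300 kb or more, 52.6% in type 1 and 47.3% of all. The median ratio was 0.166 and the median GC content 39.2%, against 0.597 and 56.7% for all starts. Among the 217 starts of genes other than chemoreceptors, 30.0% (interval 23.9 to 36.5) were CpG-rich, against 19.3% in type 5 of 300 kb or more, 58.3% in type 1 and 51.3% of all. In other short type 5 segments this share was 31.8% with 1 type 4 neighbour, 23.1% between a pair of type 4 segments and 37.5% beside neither type 1 nor type 4. Genome-wide, too, 7776 of 7777 CpG-rich starts belonged to genes other than chemoreceptors.

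**Figure D5:**
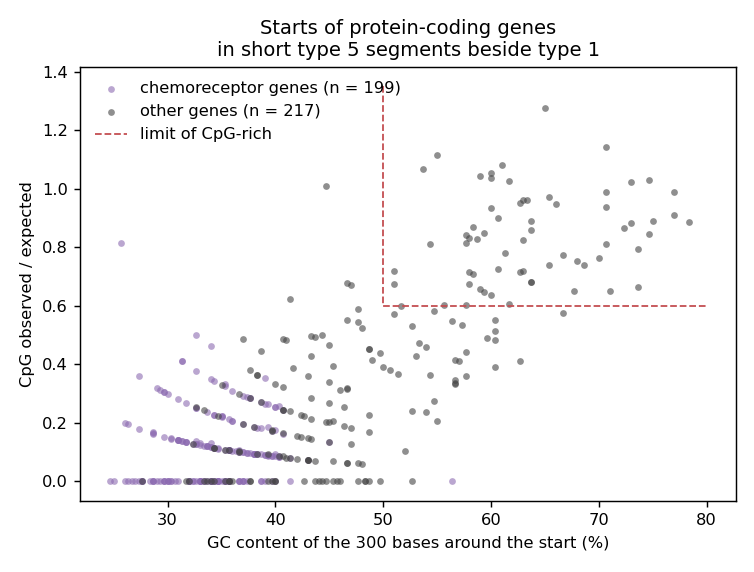
CpG observed over expected ratio (y axis) against GC content in % (x axis) of the 300 bases around each of the 416 protein-coding starts in the short type 5 segments beside type 1, chemoreceptor genes in purple and other genes in grey. The dashed lines bound the CpG-rich starts, of which there are 65, all of them grey points.

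The motif TATAAA was searched on both strands of the 300 bases. It was found at 135 of the 416 starts (32.5%, interval 28.0 to 37.2). The share was 39.3% in type 5 of 300 kb or more and 13.5% of all. The motif holds only A and T, and the median GC content of these groups of starts was 39.2%, 38.0% and 56.7%. Whether the shares differ beyond base composition was not tested. By kind of start it stood at 81 of 199 chemoreceptor starts (40.7%), at 54 of 152 other starts (35.5%) and at 0 of the 65 CpG-rich starts. Chemoreceptor starts had a median ratio of 0.098, and 74 of 199 had no CpG at all. Their median distance to the nearer border of the segment was 31.1 kb, against 23.9 kb for the 152 other starts and 12.1 kb for CpG-rich starts. Of the CpG-rich starts, 16 of 65 lay within 5 kb of it. These distances were not scaled to segment length, and segments with chemoreceptor starts only had a median length of 95 kb. Segments with a CpG-rich start were 54 of the 862, with a median of 55 kb, and 28 of them (51.9%, interval 37.8 to 65.7) stood between types 1 and 3, against 16.0% of the 658 segments with no start. The segment of Tet1 at chr10:62790001-62915000 is an example, with 60 kb of type 1 on 1 side and 10 kb of type 3 on the other, and it also holds the start of Ccar1, a cell division and apoptosis regulator named here after its values were seen.

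Of other annotated genes, pseudogenes and antibody gene segments were more frequent here than in all. The segments held 393 of 8797 pseudogenes (4.47%) and 154 of 12322 long non-coding RNA genes (1.25%), beside 1257 of all 46709 annotated genes (2.69%). Per Mb, pseudogenes of all kinds numbered 5.37 here, 4.90 in type 1 and 3.82 in all. Immunoglobulin and T cell receptor V gene segments gave 74 of 374 (19.8%). Most of them were of the kappa locus, where 55 of 102 lay here and 40 in type 1. The heavy chain locus gave 15 of 120, the T cell receptor beta locus 4 of 22 and the alpha locus 0 of 114. J gene segments gave 0 of 82. Of 386 transfer RNA genes, 31 (8.03%) lay in 6 segments, 29 of them on chromosome 13, against 83 in type 1 and 221 in type 3.

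A number of single genes with a whole body inside were noted after their values were seen. Gja1, which encodes the gap junction protein connexin 43, lay in a segment of 40 kb between types 3 and 1 and had 8 CpG around its start. Ins1, a mouse insulin gene, lay in a segment of 35 kb with type 1 on both sides and had 0 CpG around its start. Klf9 in 60 kb, with type 1 on both sides, and the splicing factor gene Srsf7 in 30 kb, likewise, had 28 CpG each. Gabpa, an ETS transcription factor gene, had 22 in a segment of 130 kb.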

How the data were processed

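CUT&RUN libraries of H2Aub and H3K27me3 came from oocytes and embryos of mice. Per the submitters' processing notes, the build was mm10 and the tools included deepTools 3.0.2, Picard 2.8.0, Bowtie2 2.3.4.3 and Trim Galore 0.4.5. The table the authors deposited is 1 ChromHMM segmentation, and its only value is the label of a type, 1 to 5, which is a category with no unit. The sources used here give neither the meaning of the types nor the libraries or version of the model. The depth is unknown, no library has a value, and so no test was made.

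Segments were sorted by chromosome and start, and neighbours were taken in that order. No touching segments shared a type, so merging left all 31563. Where segments overlapped (118 segments) the shorter was used. Genes came from a RefSeq table of GRCm38.p6, without 333 genes on scaffolds, and each was counted in the type with the largest part of its body. Starts came from a RefSeq promoter table covering 16457 of 20558 protein-coding genes (80.1%), 1 start per gene, the one nearest to the gene's outer end. CpG-rich, TATAAA and intervals were computed with Python 3.11.15, pandas 2.3.3, numpy 2.4.6 and SciPy 1.17.1, and the counting was tested on simulated data.

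The segments and gene lists were chosen with earlier results of these data known. Genes were named by a rule: those of the longest segments of each neighbour class, the 10 longest genes wholly inside, the 5 longest that start inside and leave, the 5 segments with the most genes, the segments next to the length limit and the first 4 of each list in alphabetical order. Other genes are said to have been chosen after their values were seen, and so were the runs of types 1 and 5 that are described. Settings varied were the length limit, a minimum length, contact between neighbours, the length of the type 1 neighbour, the chromosome with the most segments, gene assignment, all annotated genes and the CpG limit.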

Additional observations from a re-analysis of the deposited data

How the results depend on the processing

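No paired analysis was possible because the table is 1 segmentation with no value per library. Of 59 alternative values, 50 moved by less than the interval of the main value or, for counts, by less than 1.5 times. With a length limit of 200 kb the median length was 65 kb, against 80 kb, and the CpG-rich share of starts 20.8%, against 15.6%. With the CpG ratio at 0.75 that share was 10.3%. Without chemoreceptor genes, an alternative chosen after seeing the data, the protein-coding genes numbered 227, against 458, and the CpG-rich share was 30.0%. Over all annotated genes, 28.1% of bases lay in gene bodies, against 19.6%, and 29.7% of the segments held no gene, against 56.7%. Type 1 on both sides made up 61.1% of segments of at least 25 kb and 61.8% of those with a type 1 neighbour of at least 25 kb, against 57.1%. The cause was not tested, beyond the fewer or more segments and genes that each setting takes in by construction. Segments as deposited gave the same values as merged ones. Positions are set in bins of 5 kb, so a segment of 5 kb is a single bin and borders are no finer than that.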
